A study of Mus musculus with 12 samples.

Results

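The genes described here are the protein-coding ABC transporter genes of the mouse, subfamilies A to G, measured in cultured MOC2 cells with and without paclitaxel. They were chosen by name: every protein-coding gene whose symbol begins with Abcb to Abcg and a number, or Abca and a number from 2 upwards, while Abca1 was left out of the set. That rule used no measured value and gave 49 of the 55421 Ensembl genes in the table, of which 21897 are protein-coding. Of these 49 genes, 37 passed the low-count filter and were tested among 18108 genes, and 12 did not.

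MOC2 is a transplantable mouse oral squamous carcinoma line. The study made 2 versions of it, titled MOC2-25 (EV-Proficient) and MOC2-27 (EV-Deficient). The second carries a genetic block of extracellular vesicle (EV) release, whose target gene is not given in the labels. Cells received either DMSO, the solvent control, or 600 nM paclitaxel for 48 h, given to bring on senescence. Each of the 4 combinations has 3 libraries of polyadenylated RNA: EV-proficient DMSO, EV-deficient DMSO, EV-proficient paclitaxel and EV-deficient paclitaxel. Each EV label is represented by 1 line, so the EV block and any other difference between the lines cannot be told apart. The labels do not say whether the 3 libraries of a group came from independent cultures, so p-values measure the spread between these libraries, which may be technical.

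ABC proteins use ATP to move molecules across membranes. P-glycoprotein, encoded in the mouse by the neighbouring genes Abcb1a and Abcb1b, pumps paclitaxel and many other hydrophobic drugs out of cells and is a classical cause of taxane resistance. The MRP proteins of subfamily C export conjugated and anionic compounds, subfamilies A and G mostly move lipids and sterols, subfamily D serves peroxisomes and lysosomes, and the E and F proteins have no membrane segments and act in translation.

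RefSeq (GRCm38.p6) promoter windows, 250 bases before to 50 bases after an annotated start, were found for 37 of the 49 genes (44 windows). The pair that encodes P-glycoprotein is shown because its members are neighbours with different responses, and the soluble E and F genes because they fell together. Each is written 5′ to 3′ on the gene's strand, with capitals at matches to any of 4 motifs searched on both strands, where matches may overlap. The first motif is CCAAT. The GC box is GGGCGG in letters. The E-box reads CACGTG when spelled out. The core of the cyclic AMP response element (CRE) was searched as TGACGT alone. These motifs were picked after the sequences were seen.
Abcb1a chr5:8566841-8567140 (plus strand): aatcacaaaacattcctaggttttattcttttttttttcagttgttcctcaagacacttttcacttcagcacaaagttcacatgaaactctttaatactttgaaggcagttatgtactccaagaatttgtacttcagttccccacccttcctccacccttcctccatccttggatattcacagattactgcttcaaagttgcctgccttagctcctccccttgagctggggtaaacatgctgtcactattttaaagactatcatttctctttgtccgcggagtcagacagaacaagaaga
Abcb1b chr5:8797897-8798196 (plus strand): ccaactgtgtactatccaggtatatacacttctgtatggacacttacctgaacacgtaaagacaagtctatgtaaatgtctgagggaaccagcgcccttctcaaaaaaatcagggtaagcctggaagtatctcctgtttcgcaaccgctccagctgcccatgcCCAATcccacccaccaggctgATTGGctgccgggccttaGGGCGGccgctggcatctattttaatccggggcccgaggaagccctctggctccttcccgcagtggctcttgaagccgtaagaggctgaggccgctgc
Abce1 chr8:79711691-79711990 (minus strand): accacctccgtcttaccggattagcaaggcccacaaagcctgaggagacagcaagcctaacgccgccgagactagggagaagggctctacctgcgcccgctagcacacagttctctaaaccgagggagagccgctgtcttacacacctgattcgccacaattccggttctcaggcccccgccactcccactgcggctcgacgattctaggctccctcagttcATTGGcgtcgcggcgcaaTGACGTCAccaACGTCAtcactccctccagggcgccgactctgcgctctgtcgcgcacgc
Abcf1 chr17:35969701-35970000 (minus strand): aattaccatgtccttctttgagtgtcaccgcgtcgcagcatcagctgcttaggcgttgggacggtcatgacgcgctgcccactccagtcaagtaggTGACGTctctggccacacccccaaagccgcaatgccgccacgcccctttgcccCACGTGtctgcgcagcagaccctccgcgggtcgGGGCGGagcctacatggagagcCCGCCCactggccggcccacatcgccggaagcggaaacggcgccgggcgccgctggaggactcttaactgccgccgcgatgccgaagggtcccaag
Abcf2 chr5:24577418-24577717 (minus strand): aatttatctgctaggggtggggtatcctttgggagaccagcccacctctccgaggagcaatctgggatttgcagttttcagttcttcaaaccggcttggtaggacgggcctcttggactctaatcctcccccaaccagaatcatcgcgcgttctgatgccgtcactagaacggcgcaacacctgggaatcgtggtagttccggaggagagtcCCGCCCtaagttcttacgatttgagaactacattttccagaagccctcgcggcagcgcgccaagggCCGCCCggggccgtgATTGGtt
Abcf3 chr16:20548353-20548652 (plus strand): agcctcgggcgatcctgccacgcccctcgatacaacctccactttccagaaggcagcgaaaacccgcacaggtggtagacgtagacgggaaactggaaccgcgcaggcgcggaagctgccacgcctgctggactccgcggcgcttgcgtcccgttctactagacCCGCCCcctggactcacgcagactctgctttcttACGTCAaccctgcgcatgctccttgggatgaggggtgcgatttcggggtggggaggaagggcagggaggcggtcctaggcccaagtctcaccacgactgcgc
The Abcb1b window held CCAAT on each strand and a GC box, while the Abcb1a window held none of these letters. The RefSeq start of Abcb1a lies 92986 bases upstream of its GENCODE gene start, so its window may not be the promoter in use here. CCAAT occurs in 37.4% of all 32851 windows and the GC box in 35.7%. The CRE core was found in the windows of Abce1, Abcf1 and Abcf3 and not in that of Abcf2. Over the ABC genes it was in 4 of 44 windows, or 9.09%, with Abcg2 as the other gene, against 7.51% of all windows. The soluble genes were picked by their fall and the motifs after the sequences were seen, so a higher share among them is not a result. The E-box, found in the Abcf1 window, occurs in 7.15% of all windows. A match is a description of letters and not of a bound site.

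Total counts ranged from 23263472 to 62955757 per library. The authors' table carries an added row named dngfr, whose level went against a simple reading of the EV labels. It was 5.73 to 12.2 CPM (counts scaled to a common library size) in EV-proficient DMSO and 1.89 to 2.54 in EV-deficient DMSO, but 2.47 to 3.76 in EV-proficient paclitaxel and 9.63 to 12.4 in EV-deficient paclitaxel. The labels do not say which cells should carry it. Groups are therefore called by their labels throughout. Any direction drawn between EV labels, or within 1 of them, holds only if those labels are right, and whether the EV labels of either treatment are exchanged was not tested. The paclitaxel effect averaged over both EV labels compares the 6 paclitaxel with the 6 DMSO libraries and does not depend on which EV label a library has, so it is given first. The epithelial markers Krt8, Krt18, Epcam and Cdh1 were high in every library. Of the basal squamous markers, Krt14 had 3577 to 40927 counts, Krt17 5943 to 20650 and Itgb4 4952 to 15253, while Krt5 and Trp63 had at most 8 and 11. Leukocyte, endothelial, fibroblast and erythroid marker lists summed to at most 2.02, 4.26, 6.02 and 1.54 CPM. The endothelial list was at 1.69 to 2.49 CPM with DMSO and 2.55 to 4.26 with paclitaxel, without overlap. The fibroblast list (Pdgfra, Dcn and Lum) was at 1.05 to 2.26 CPM with DMSO and 4.41 to 6.02 with paclitaxel, also without overlap. Lum had no counts in any DMSO library and at most 5 with paclitaxel. The part of these markers in the results for low-level genes such as Abca6, Abca8b and Abca9 was not tested. The share of counts from mitochondrial genes was 0.550% to 0.729% with DMSO and 0.846% to 1.45% with paclitaxel, and its part in the results was not tested.

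With paclitaxel, averaged over both EV labels, 17 of the 37 tested ABC genes were higher and 13 lower at an adjusted p under 0.05 (edgeR quasi-likelihood test). With a filter of 1 CPM in 3 libraries, which tests fewer genes, 11 were higher. Of all genes tested, 37.1% were higher and 31.3% lower, 68.4% in either direction. Most genes therefore changed, and a call alone does not set an ABC gene apart. Among the 25 ABC genes with a mean of at least 1 CPM, 40.0% were higher and 48.0% lower, against 37.1% and 41.6% of all genes at that level. The other 12, with a mean under 1 CPM, gave 7 higher and 1 lower, or 58.3% and 8.33%, against 37.1% and 7.15% of all genes at that level. They passed the filter partly through the group where they are high, so their counts describe and do not support a direction. The mean used for this split takes in the treated libraries. Abca8b, with a mean of 1.07 CPM and 0.439 to 0.731 in the DMSO libraries, is among the 25 through its paclitaxel level. The median log2 fold change was 0.16 over the ABC genes and 0.07 over all genes. By role, 10 of 15 lipid transporters tested were higher and 2 lower, 4 of 8 organelle transporters were higher and 2 lower, and 4 of 4 soluble proteins were lower. Of the 3 multidrug pumps 1 was higher and 2 were lower, and of the 6 ABCC exporters 1 was higher and 3 were lower. The roles were assigned with earlier results of these data known.

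**Figure D1:**
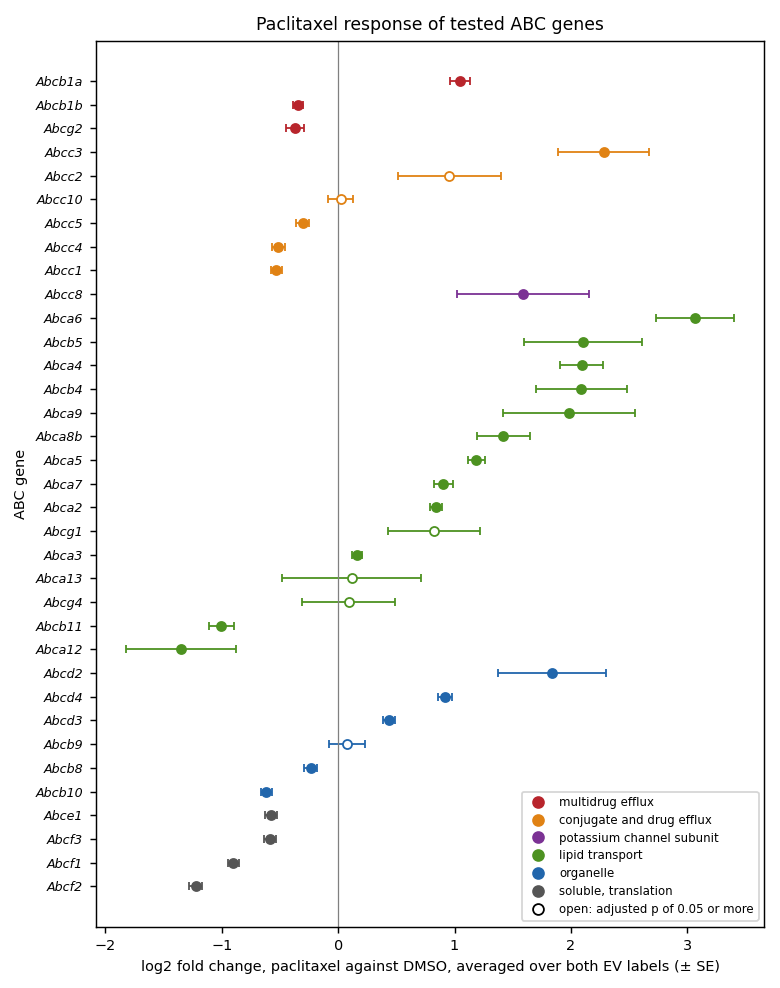
Log2 fold change (x axis, ± SE) of the tested ABC genes shown (y axis) with paclitaxel against DMSO, averaged over both EV labels, 6 against 6 libraries, coloured by role. The soluble translation proteins all lie left of 0, Abcb1a lies at 1.05 and its neighbour Abcb1b at -0.35. Open circles did not pass the threshold.

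Transcripts were unevenly spread over the family. Per exon length, as CPM divided by exon length in kilobases (FPKM) and averaged over all 12 libraries, Abce1 was highest at 96.4, followed by Abcf2 at 88.7. In both DMSO groups the order of these was the reverse, with Abcf2 at 114 and 135 and Abce1 at 111 and 119 FPKM, EV-proficient first. Next came Abcf1 at 56.4 and Abcc4 at 30.7 over all libraries. Abcb1b stood at 14.2 FPKM and Abcc1 at 14.1, whereas Abcb1a stood at 1.65, Abcg2 at 3.36 and the taxane carrier Abcc10 at 0.645. Summed over the 49 genes, the level was 2556 ± 95.5 CPM in EV-proficient DMSO and 2421 ± 62.3 in EV-deficient DMSO (SD, n = 3). With paclitaxel it was 1844 ± 17.9 and 1812 ± 87.6. The 6 paclitaxel libraries all lie below the 6 DMSO libraries, and the 5 most abundant genes made up 57.6% to 74.9% of each group's sum. These levels are shares of a library, so less RNA per cell of one gene and more of others cannot be told apart.

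Of the P-glycoprotein genes, Abcb1a rose with paclitaxel under both EV labels, whereas Abcb1b went down under one label and up under the other as labelled. Abcb1a (ENSMUSG00000040584, chr5:8660077-8748575, GRCm38) had 7.8, 6.7 and 6.88 CPM in the EV-proficient DMSO libraries, 4.82, 4.61 and 4.9996 in the EV-deficient DMSO libraries, 11.5, 11.9 and 10.3 with paclitaxel in EV-proficient cells and 11.9, 12.05 and 14.9 with paclitaxel in EV-deficient cells. Every paclitaxel library was above every DMSO library. The averaged log2 fold change was 1.05 ± 0.09 (SE, adjusted p = 7.09e-10), with 0.66 ± 0.12 (SE, adjusted p = 9.75e-05) in EV-proficient and 1.43 ± 0.12 (SE, adjusted p = 1.76e-09) in EV-deficient cells.

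Abcb1b (ENSMUSG00000028970, chr5:8798147-8866315) was the more abundant gene of the pair. It had 175, 171 and 162 CPM in the EV-proficient DMSO libraries, 82.6, 87.1 and 80.7 in the EV-deficient DMSO libraries, 66.1, 61.8 and 65.5 with paclitaxel in EV-proficient cells and 142, 132 and 133 with paclitaxel in EV-deficient cells. In neither EV label did the treated and untreated libraries overlap, and the shifts ran in opposite directions. Its log2 fold change was -1.39 ± 0.06 (SE, adjusted p = 1.35e-13) in EV-proficient and 0.70 ± 0.06 (SE, adjusted p = 1.61e-09) in EV-deficient cells. The average of these, -0.35 ± 0.04 (SE, adjusted p = 2.6e-07), does not show that opposition, and over the 12 libraries the paclitaxel and DMSO values overlap. The opposition rests on the EV labels. The group means were 169 and 83.5 CPM with DMSO and 64.5 and 135 CPM with paclitaxel, EV-proficient first, so with the labels of one treatment exchanged both shifts would be falls, and the averaged value would stay the same.

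Because the genes are close paralogues, the share of Abcb1a in their joint counts was also computed. It was 3.77% to 5.83% in the 6 DMSO libraries and 7.72% to 16.1% in the 6 paclitaxel libraries, a difference in means of 7.05 percentage points (two-sided exact permutation test, p = 0.00216). That p is the lowest that 6 against 6 libraries can give, so it restates the lack of overlap. The permutations did not keep the EV labels apart. Within an EV label, 3 against 3 libraries cannot give a p under 0.1, and both labels gave 0.1 without overlap. The joint level of the pair ran from 85.7 to 183 CPM with DMSO and from 73.7 to 154 with paclitaxel, with no difference past the threshold (exact permutation test, p = 0.476). That holds opposite shifts by label: the joint level was 169 to 183 CPM with DMSO and 73.7 to 77.5 with paclitaxel in EV-proficient cells, but 85.7 to 91.7 and 144 to 154 in EV-deficient cells, without overlap in either. Abcb1a and Abcb1b transcripts share 15.5% and 17.8% of their 50-base stretches, so part of their reads may have been split between them by the counting, which the sources used here do not describe. Exons of Abcb1a overlap those of Gm42686 on the other strand by 553 bases, and those of Abcb1b overlap Gm5106 by 143 bases.

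Abcg2, the breast cancer resistance protein, a half-transporter of drugs and urate, had 29.4, 31.3 and 30.2 CPM in the EV-proficient DMSO libraries, 32.2, 31.1 and 29.6 in the EV-deficient DMSO libraries, 20.3, 18.5 and 18.6 with paclitaxel in EV-proficient cells and 31.9, 22.7 and 33.1 with paclitaxel in EV-deficient cells. Its EV-proficient paclitaxel libraries were the lowest of all 12, and its EV-deficient paclitaxel libraries spread from below to above the control range. The averaged log2 fold change was -0.37 ± 0.07 (SE, adjusted p = 0.000152). The log2 fold change was -0.66 ± 0.11 (SE, adjusted p = 1.72e-05) in EV-proficient cells and -0.08 ± 0.10 (SE, adjusted p = 0.521) in EV-deficient cells. The 95% interval of the latter, -0.28 to 0.12, holds both small decreases and small increases.

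**Figure D2:**
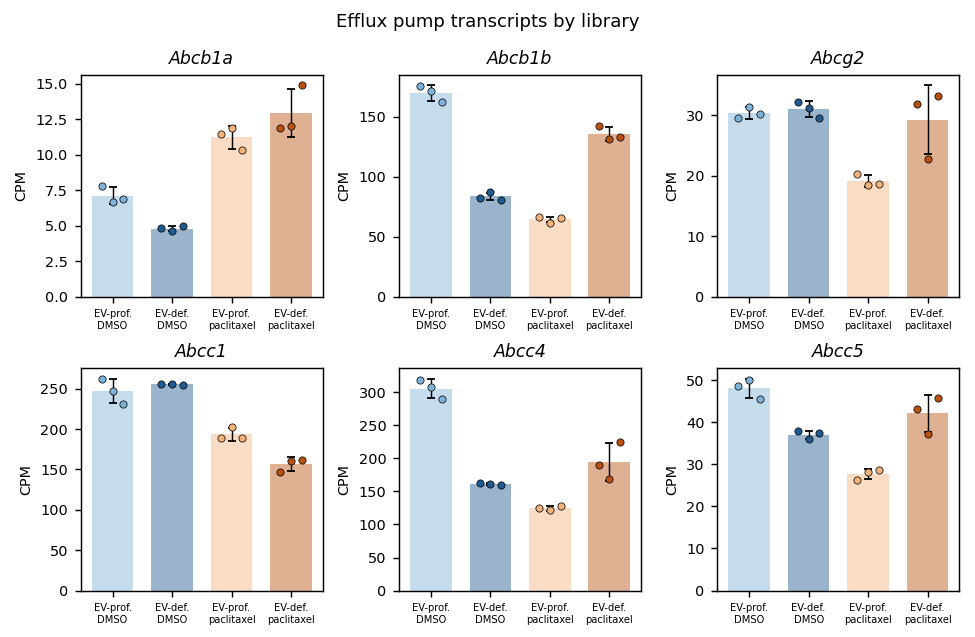
CPM of 6 efflux pump genes (y axes, from 0) in the 4 groups (x axes). Points are libraries, bars group means and whiskers the SD of 3 libraries. Abcb1a is higher in both paclitaxel groups than in both DMSO groups, while Abcb1b and Abcc4 are lower with paclitaxel under the EV-proficient label and higher under the EV-deficient label.

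Among the ABCC exporters, Abcc1 fell under both EV labels, Abcc4 and Abcc5 fell under the EV-proficient label, and Abcc3 was higher with paclitaxel at a low level. Abcc1, or MRP1, exports glutathione conjugates and leukotriene C4. It had 262, 247 and 231 CPM in the EV-proficient DMSO libraries, 256, 256 and 254 in the EV-deficient DMSO libraries, 189, 203 and 189 with paclitaxel in EV-proficient cells and 146, 161 and 162 with paclitaxel in EV-deficient cells. All 6 treated libraries were below all 6 controls. The averaged log2 fold change was -0.53 ± 0.04 (SE, adjusted p = 4.67e-10), with -0.35 in EV-proficient and -0.71 in EV-deficient cells.

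Abcc4, or MRP4, exports cyclic nucleotides and prostaglandins and was the most abundant ABCC gene per length. It had 319, 307 and 290.4 CPM in the EV-proficient DMSO libraries, 163, 161 and 159.7 in the EV-deficient DMSO libraries, 124, 121 and 127 with paclitaxel in EV-proficient cells and 190.4, 168 and 225 with paclitaxel in EV-deficient cells. The EV-proficient DMSO libraries stood above all others, and the other 3 groups ran from 121 to 225 CPM. The log2 fold change with paclitaxel was -1.30 ± 0.08 (SE, adjusted p = 9.86e-12) in EV-proficient and 0.27 ± 0.08 (SE, adjusted p = 0.00381) in EV-deficient cells. Abcc5, or MRP5, another exporter of cyclic nucleotides, had 48.6, 49.9 and 45.5 CPM in the EV-proficient DMSO libraries, 37.8, 35.9 and 37.3 in the EV-deficient DMSO libraries, 26.3, 28.2 and 28.6 with paclitaxel in EV-proficient cells and 43.2, 37.3 and 45.8 with paclitaxel in EV-deficient cells. It gave -0.79 ± 0.08 (SE, adjusted p = 2.04e-08) in EV-proficient cells. In EV-deficient cells it gave 0.19 ± 0.08 (SE, adjusted p = 0.0421), with overlapping groups, and this call was lost without any 1 library other than EV-deficient paclitaxel replicate 2 (0.11 to 0.19), with no low-count filter (0.15) and in a fit of only the groups compared (0.20).

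Abcc3, or MRP3, which exports glucuronides and bile salts, had 0.0974, 0.168 and 0.117 CPM in the EV-proficient DMSO libraries, 0.125, 0.0417 and 0.263 in the EV-deficient DMSO libraries, 0.632, 0.422 and 0.405 with paclitaxel in EV-proficient cells and 0.783, 0.844 and 1.07 with paclitaxel in EV-deficient cells. Every treated library was above every control, and the averaged log2 fold change was 2.28 ± 0.39 (SE, adjusted p = 2.28e-05), at no more than 1.07 CPM. Abcc3 had 2 to 12 counts in the DMSO libraries and passed the low-count filter through the paclitaxel libraries. Its rise therefore describes and does not support a direction. Abcc10, or MRP7, which carries taxanes, had 3.96 to 5.24 CPM over all 12 libraries. Its averaged log2 fold change was 0.02 ± 0.11 (SE, adjusted p = 0.864), with a 95% interval of -0.18 to 0.23, and no comparison called it. Abcc2, or MRP2, which also carries taxanes, stayed at 0.0957 to 0.558 CPM and gave 0.95 ± 0.44 (SE, adjusted p = 0.0621). Without EV-deficient paclitaxel replicate 2, EV-proficient DMSO replicate 3 or EV-proficient paclitaxel replicate 1 that value was 1.09, 1.16 or 1.12 and passed the threshold. Abcc8, the sulphonylurea receptor subunit SUR1, gave 1.59 ± 0.57 (SE, adjusted p = 0.0179) on average and was not called within either EV label. That averaged call was lost without EV-deficient DMSO replicate 3 (1.42), EV-deficient paclitaxel replicate 3 (1.42) or EV-proficient paclitaxel replicate 1 (1.36). The EV-proficient value, 1.67, became 3.03 and was called without EV-proficient DMSO replicate 3. Abcc8 had 0 to 11 counts in the DMSO libraries and passed the low-count filter through the paclitaxel libraries, so these values describe and do not support a direction.

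Of the 7 lipid transporters with a mean of at least 1 CPM, 6 were higher with paclitaxel on average and 1 was lower, where 37.1% of all genes at that level were higher and 41.6% lower. Of the 8 under 1 CPM, 4 were higher and 1 lower, where 37.1% and 7.15% of all genes were, which describes genes that passed the filter partly where they are high. The mean used for this split takes in the treated libraries. Abca8b averaged 1.07 CPM but was at 0.439 to 0.731 in the DMSO libraries, so it is among the 7 through its paclitaxel level. Abca4 averaged 1.84 CPM and was at 0.341 to 1.29 with DMSO. The 6 of 7 therefore describes and does not support a direction. Abca2, of endolysosomal membranes, had 48.5, 46.9 and 49.3 CPM in the EV-proficient DMSO libraries, 46.2, 51.2 and 53.5 in the EV-deficient DMSO libraries, 95.02, 99.05 and 89.4 with paclitaxel in EV-proficient cells and 76.8, 90.5 and 80.2 with paclitaxel in EV-deficient cells. Abca7, a phospholipid transporter related to Abca1, had 43.02, 36.9 and 41.2 CPM in the EV-proficient DMSO libraries, 30.3, 30.3 and 29.9 in the EV-deficient DMSO libraries, 61.6, 71.1 and 58.8 with paclitaxel in EV-proficient cells and 56.8, 84.9 and 58.8 with paclitaxel in EV-deficient cells. Abca5, a lysosomal lipid transporter, had 17.6, 13.7 and 14.3 CPM in the EV-proficient DMSO libraries, 10.01, 10.3 and 10.2 in the EV-deficient DMSO libraries, 22.1, 18.3 and 21.8 with paclitaxel in EV-proficient cells and 38.9, 36.4 and 40.98 with paclitaxel in EV-deficient cells. In all of these genes the treated libraries lay above every control library. The averaged log2 fold changes were 0.84 ± 0.05 (SE, adjusted p = 4.5e-12) for Abca2, 0.90 ± 0.08 (SE, adjusted p = 1.88e-09) for Abca7 and 1.19 ± 0.07 (SE, adjusted p = 3.44e-12) for Abca5. The treated Abca5 libraries also differed by EV label, with 0.45 in EV-proficient and 1.93 in EV-deficient cells and an interaction of 1.49 ± 0.14 (SE, adjusted p = 3.57e-08).

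Abca5 lies at the end of a gene cluster on chromosome 11 with Abca6, Abca9, Abca8a and Abca8b, and 4 of these 5 genes were tested. All 4 were higher with paclitaxel on average, where 37.1% of all genes were, but Abca8b and Abca9 were not called under the EV-proficient label. Abca6 and Abca9 had 1 to 10 counts in the DMSO libraries and passed the low-count filter through the paclitaxel libraries, so their rise describes and does not support a direction. Abca6 had 0.0974, 0.0718 and 0.0293 CPM in the EV-proficient DMSO libraries, 0.178, 0.188 and 0.175 in the EV-deficient DMSO libraries, 0.494, 0.686 and 0.971 with paclitaxel in EV-proficient cells and 1.34, 1.06 and 1.46 with paclitaxel in EV-deficient cells, with 3.07 ± 0.33 (SE, adjusted p = 4.37e-08), the largest averaged rise among the 37 tested genes of the set, at no more than 1.46 CPM. Abca1 and Tap1, ABC genes outside the set described further on, had larger ones. Abca8b gave 1.42 ± 0.23 (SE, adjusted p = 1.21e-05) and Abca9 gave 1.98 ± 0.57 (SE, adjusted p = 0.00387), at no more than 2.82 and 0.485 CPM, and the Abca9 groups overlapped. In EV-proficient cells Abca8b was at 0.77 (adjusted p = 0.0543). That value passed the threshold with a filter of 1 CPM in 3 libraries (0.78), with upper-quartile scaling (0.83) and without EV-proficient DMSO replicate 1 (1.05). Abca8b shares 241 exonic bases with Gm11697 on the other strand. Outside the cluster, Abca4, known as the retinal flippase, had 0.341, 0.431 and 0.527 CPM in the EV-proficient DMSO libraries, 0.946, 1.29 and 0.767 in the EV-deficient DMSO libraries, 3.58, 3.78 and 4.37 with paclitaxel in EV-proficient cells and 1.9, 2.25 and 1.94 with paclitaxel in EV-deficient cells. It was above every control in all 6 treated libraries, with an averaged change of 2.09 ± 0.18 (SE, adjusted p = 1.57e-09). Abcb4, the phosphatidylcholine floppase of bile and the third gene of the Abcb1 cluster, gave 2.09 ± 0.39 (SE, adjusted p = 7.33e-05) from no more than 0.303 CPM in the controls. Its EV-proficient call was lost without EV-proficient paclitaxel replicate 2 (1.5). Abcb5, a relative of P-glycoprotein, was counted here with the lipid transporters; with it among the multidrug pumps, 2 of 4 of those would be higher on average. It gave 2.11 ± 0.51 (SE, adjusted p = 0.000921) at no more than 0.913 CPM. Its EV-proficient call was lost without EV-proficient DMSO replicate 2 (1.85) or 3 (1.98) or EV-proficient paclitaxel replicate 2 (1.54) and with limma-voom (1.81), and its EV-deficient call without EV-deficient DMSO replicate 1 (1.64) or EV-deficient paclitaxel replicate 1 (1.59). Abcb4 and Abcb5 had 2 to 17 and 1 to 9 counts in the DMSO libraries and also passed the low-count filter through the paclitaxel libraries. Their rises describe and do not support a direction.

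A few lipid genes went the other way or split by EV label. Abcb11, the bile salt export pump of liver, had 15.5, 11.9 and 11.7 CPM in the EV-proficient DMSO libraries, 18.2, 16.5 and 16.5 in the EV-deficient DMSO libraries, 7.31, 7.82 and 7.4 with paclitaxel in EV-proficient cells and 7.08, 5.47 and 9.4 with paclitaxel in EV-deficient cells, and all treated libraries were below all controls, with -1.004 ± 0.11 (SE, adjusted p = 3.39e-08). Abcg1, a cholesterol exporter controlled by liver X receptors, had 0.0487, 0.168 and 0.0585 CPM in the EV-proficient DMSO libraries, 1.2, 0.917 and 1.4 in the EV-deficient DMSO libraries, 1.42, 1.07 and 0.647 with paclitaxel in EV-proficient cells and 0.485, 0.433 and 0.082 with paclitaxel in EV-deficient cells. Its log2 fold change was 3.48 ± 0.61 (SE, adjusted p = 4.21e-05) in EV-proficient and -1.83 ± 0.49 (SE, adjusted p = 0.00275) in EV-deficient cells, so that the averaged value of 0.82 ± 0.40 (SE, adjusted p = 0.0726) was not called. Without EV-deficient paclitaxel replicate 3 or EV-proficient DMSO replicate 2 the average was 1.04 or 1.21 and passed the threshold. Abca13, a very large member of subfamily A, likewise gave -2.47 ± 0.80 (SE, adjusted p = 0.0111) and 2.70 ± 0.70 (SE, adjusted p = 0.00205), at no more than 0.837 CPM. The EV-proficient call was lost without EV-proficient DMSO replicate 3 (-1.78) or EV-proficient paclitaxel replicate 2 (-2.22). Abca12, the keratinocyte lipid transporter of the skin barrier, gave -3.16 ± 0.67 (SE, adjusted p = 0.000324) in EV-deficient cells and 0.46 ± 0.65 (SE, adjusted p = 0.571) in EV-proficient cells. Its averaged fall, -1.35 ± 0.47 (SE, adjusted p = 0.0152), was lost without EV-proficient DMSO replicate 1 (-1.17). The squamous epithelial marker list, summed over 9 genes, was at 5419 to 6097 CPM with DMSO and 3351 to 4212 CPM with paclitaxel, but its members did not move alike. Krt8 was at 1735 to 2324 CPM with DMSO and 844 to 1035 with paclitaxel. Epcam was at 386 to 424 CPM with DMSO and 795 to 839 with paclitaxel under the EV-proficient label, but at 434 to 443 and 423 to 616 under the EV-deficient label, with overlap. Krt14 was at 645 to 730 CPM with DMSO and 77.4 to 82.5 with paclitaxel under the EV-deficient label, but at 182 to 206 and 178 to 202 under the EV-proficient label, so its lower level with paclitaxel was under the label where Abca12 was called lower. The part of these markers in the Abca12 result was not tested. Abca3, a phospholipid transporter of lamellar bodies, gave -0.20 ± 0.06 (SE, adjusted p = 0.00968) in EV-proficient and 0.52 ± 0.06 (SE, adjusted p = 1.96e-07) in EV-deficient cells, and the former call was lost with upper-quartile scaling (-0.14) and with no low-count filter (-0.17).

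Of the organelle transporters, Abcd3 and Abcd4 of subfamily D rose and 2 of the mitochondrial genes fell. Abcd3, which imports branched and dicarboxylic acyl-CoA into peroxisomes, had 41.03, 36.95 and 37.1 CPM in the EV-proficient DMSO libraries, 46.1, 43.2 and 42.3 in the EV-deficient DMSO libraries, 58.7, 55.6 and 54.7 with paclitaxel in EV-proficient cells and 53.7, 56.6 and 53.96 with paclitaxel in EV-deficient cells. Abcd4, which works with cobalamin release from lysosomes, had 23.6, 23.3 and 24.7 CPM in the EV-proficient DMSO libraries, 17.2, 18.5 and 17.1 in the EV-deficient DMSO libraries, 40.4, 42.8 and 37.9 with paclitaxel in EV-proficient cells and 36.5, 41.96 and 32.4 with paclitaxel in EV-deficient cells. For both genes every treated library was above every control. The averaged changes were 0.44 ± 0.05 (SE, adjusted p = 4.74e-08) and 0.92 ± 0.06 (SE, adjusted p = 2.62e-11). Abcd2, another peroxisomal acyl-CoA importer, gave 1.84 ± 0.46 (SE, adjusted p = 0.00139) at no more than 0.485 CPM, and was not called in EV-proficient cells. Abcd2 had 1 to 7 counts in the DMSO libraries and passed the low-count filter through the paclitaxel libraries. Its value therefore describes and does not support a direction. Abcb10, a mitochondrial transporter needed for haem synthesis, had 52.3 to 65.0 CPM with DMSO and 34.8 to 41.4 with paclitaxel, without overlap, and gave -0.62 ± 0.05 (SE, adjusted p = 1.01e-10). Abcb8, of the mitochondrial inner membrane, gave -0.56 ± 0.08 (SE, adjusted p = 2.56e-06) in EV-deficient and 0.09 ± 0.08 (SE, adjusted p = 0.364) in EV-proficient cells, and its averaged call (-0.24 ± 0.06 (SE, adjusted p = 0.000852)) was lost with upper-quartile scaling (-0.11). Abcb9, a lysosomal peptide transporter, gave 0.08 ± 0.16 (SE, adjusted p = 0.681).

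The soluble E and F proteins fell together under both EV labels. Abce1, which splits ribosomes after translation, had 686, 690.1 and 624 CPM in the EV-proficient DMSO libraries, 739.9, 725 and 685 in the EV-deficient DMSO libraries, 512, 481 and 539.6 with paclitaxel in EV-proficient cells and 444, 373 and 445 with paclitaxel in EV-deficient cells. Abcf1, a translation factor, had 306, 326 and 302 CPM in the EV-proficient DMSO libraries, 351, 327 and 328 in the EV-deficient DMSO libraries, 189, 207 and 182 with paclitaxel in EV-proficient cells and 149.6, 144 and 171 with paclitaxel in EV-deficient cells. Abcf2 had 282, 308 and 286 CPM in the EV-proficient DMSO libraries, 361, 340.0 and 337 in the EV-deficient DMSO libraries, 147, 159 and 158 with paclitaxel in EV-proficient cells and 117, 104 and 138 with paclitaxel in EV-deficient cells, and every treated library of all 3 genes was below every control. Abcf3 had 53.99, 55.3 and 49.00 CPM in the EV-proficient DMSO libraries, 63.1, 62.97 and 57.5 in the EV-deficient DMSO libraries, 37.5, 44.4 and 41.95 with paclitaxel in EV-proficient cells and 34.6, 35.5 and 34.2 with paclitaxel in EV-deficient cells, again without overlap. The averaged log2 fold changes were -0.58 ± 0.05 (SE, adjusted p = 9.94e-10) for Abce1, -0.90 ± 0.05 (SE, adjusted p = 5.3e-13) for Abcf1, -1.22 ± 0.06 (SE, adjusted p = 3.98e-14) for Abcf2 and -0.59 ± 0.05 (SE, adjusted p = 2.22e-09) for Abcf3. The values ran from -0.77 to -1.53 in EV-deficient and from -0.36 to -0.92 in EV-proficient cells, and the interaction was past the threshold for all 4 genes, from -0.39 for Abce1 to -0.61 for Abcf2, where 40.7% of all genes were called and 23.8% were called in this direction. It holds only for the EV labels as given. With those of the paclitaxel libraries exchanged the values would be 0.18 for Abce1, 0.21 for Abcf1, 0.13 for Abcf2 and 0.03 for Abcf3, with no test.

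**Figure D3:**
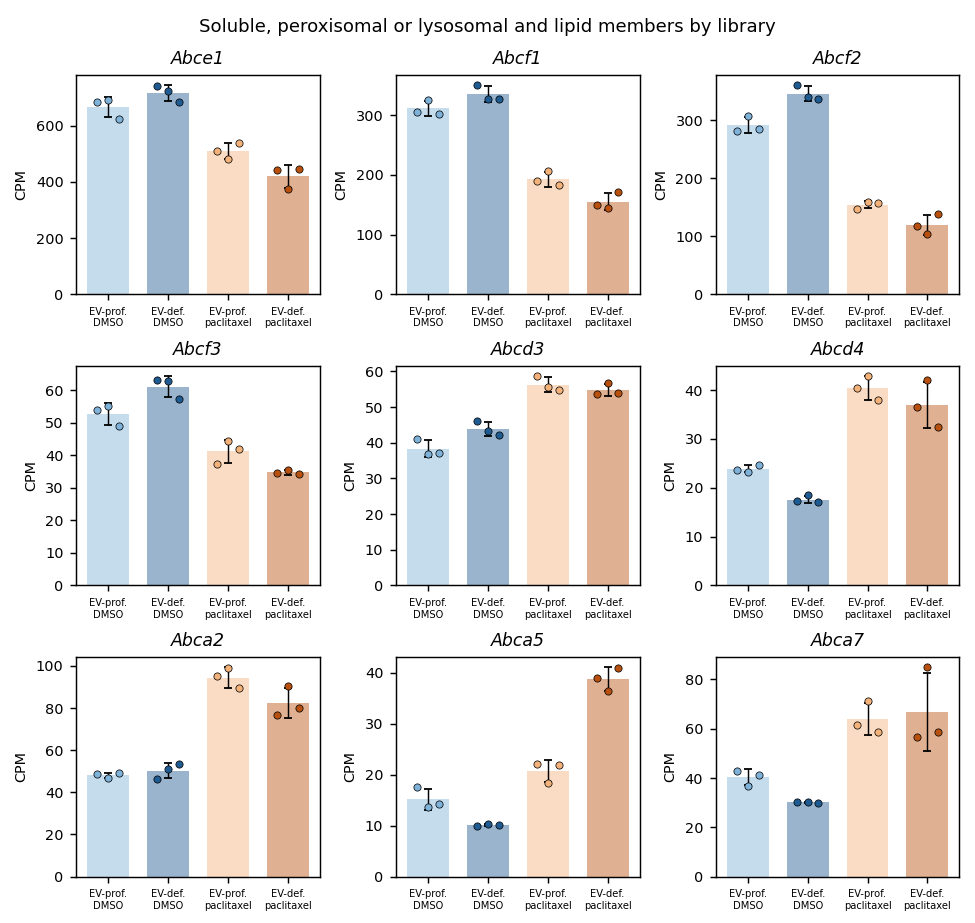
CPM of 9 ABC genes (y axes, from 0) in the 4 groups (x axes), with points for libraries, bars for group means and whiskers for the SD of 3 libraries. The 4 soluble genes (Abce1, Abcf1, Abcf2, Abcf3) are lower in both paclitaxel groups, and the subfamily D and A genes shown are higher.

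Taken within an EV label, paclitaxel left 13 ABC genes higher and 13 lower in EV-proficient cells, where 31.1% of all genes were higher and 27.1% lower, 58.2% in either direction. In EV-deficient cells it left 20 higher and 10 lower, where 32.4% were higher and 30.5% lower, 62.9% in either direction. Of the genes called there, 51.5% were higher, and 63.4% with upper-quartile scaling. As labelled, the highest values in EV-proficient cells were those of Abcg1, Abca6 (3.32 ± 0.52 (SE, adjusted p = 1.13e-05)) and Abca4 (3.17 ± 0.28 (SE, adjusted p = 2.54e-09)), and the lowest those of Abca13, Abcb1b and Abcc4. In EV-deficient cells the highest were Abca9 (3.14 ± 0.77 (SE, adjusted p = 0.00122)), Abcd2 (2.83 ± 0.67 (SE, adjusted p = 0.00089)) and Abca6 (2.82 ± 0.42 (SE, adjusted p = 5.51e-06)), and the lowest Abca12, Abcg1 and Abcf2 (-1.53 ± 0.08 (SE, adjusted p = 5.65e-13)). Of the 25 ABC genes called under both labels, 12 were higher in both, 7 lower in both and 6 opposite, or 48%, 28% and 24%, against 42.5%, 41.6% and 15.9% of all genes called under both labels. The opposite genes, as labelled, were Abca3, Abca13, Abcb1b, Abcc4, Abcc5 and Abcg1. The 2 comparisons share no samples, and the difference between them was tested as an interaction, which called 11 ABC genes higher and 10 lower, against 16.9% and 23.8% of all genes, 40.7% in either direction. Of the genes called by it, 41.4% were higher, and 53.9% with upper-quartile scaling. As labelled, it was largest for Abcg1 (-5.31 ± 0.78 (SE, adjusted p = 1.21e-05)) and Abca13 (5.17 ± 1.06 (SE, adjusted p = 0.000447)), followed by Abca12 (-3.62 ± 0.94 (SE, adjusted p = 0.00362)) and Abca4 (-2.16 ± 0.37 (SE, adjusted p = 6.64e-05)). Among the pumps it was 2.09 ± 0.09 (SE, adjusted p = 4.12e-14) for Abcb1b, 1.57 ± 0.11 (SE, adjusted p = 1.97e-10) for Abcc4, 0.98 ± 0.11 (SE, adjusted p = 3.51e-07) for Abcc5, 0.77 ± 0.17 (SE, adjusted p = 0.00116) for Abcb1a, 0.58 ± 0.15 (SE, adjusted p = 0.00326) for Abcg2 and -0.36 ± 0.09 (SE, adjusted p = 0.00207) for Abcc1. Abcc2, Abcc3, Abcc8 and Abcc10 had no interaction past the threshold.

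These opposite directions and interactions hold only for the EV labels as given. When each paclitaxel group was set against the DMSO group of the other EV label, with no test, the log2 fold change of Abcb1b was -0.32 for EV-deficient paclitaxel and -0.37 for EV-proficient paclitaxel. Abcc4 gave -0.65 and -0.38 and Abcc5 gave -0.19 and -0.42 in that order, so that all these pumps were lower in both. Against the other label's controls, EV-proficient paclitaxel was highest for Abcd2 (2.17), Abca4 (1.95) and Abca6 (1.94), and Abcg1 was at -0.13. The value for EV-proficient paclitaxel minus that for EV-deficient paclitaxel, which would be the interaction if the labels of the paclitaxel libraries were exchanged, was farthest from 0 for Abca6 (-2.25). It was -1.91 for Abcg1, -1.48 for Abca13, -1.28 for Abca9, -1.25 for Abca8b, -0.21 for Abca12, -0.28 for Abca4 and -0.05 for Abcb1b. The order of the interactions therefore depends on the labels, and whether any label is exchanged was not tested.

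Between EV labels under DMSO, 6 ABC genes were higher and 9 lower in EV-deficient libraries, where 12.4% of all genes were higher and 10.6% lower, 23% in either direction. Under paclitaxel 9 were higher and 9 lower, against 16% and 21.8% of all genes, 37.8% in either direction. Of the genes called, 53.9% were higher without drug and 42.4% under paclitaxel, and upper-quartile scaling turned these to 47.1% and 58.2%. Without drug, Abcb1b (-1.02 ± 0.06 (SE, adjusted p = 4.47e-11)), Abcc4 (-0.92 ± 0.08 (SE, adjusted p = 8.39e-09)), Abcb1a (-0.57 ± 0.13 (SE, adjusted p = 0.00219)) and Abcc5 (-0.37 ± 0.08 (SE, adjusted p = 0.00107)) were lower under the EV-deficient label. Under paclitaxel the same comparison gave 1.07 ± 0.06 (SE, adjusted p = 2.59e-11) for Abcb1b, 0.65 ± 0.08 (SE, adjusted p = 1.14e-06) for Abcc4 and 0.61 ± 0.08 (SE, adjusted p = 3.75e-06) for Abcc5, all higher, while Abcb1a gave 0.20 ± 0.12 (SE, adjusted p = 0.195). The highest called differences without drug were those of Abcg1 (3.61 ± 0.60 (SE, adjusted p = 0.000112)) and Abca12 (1.91 ± 0.62 (SE, adjusted p = 0.0294)), the latter lost without any 1 of 5 DMSO libraries, EV-proficient replicate 1 being the exception (1.57 to 2.01). Under paclitaxel they were Abca13 (3.32 ± 0.76 (SE, adjusted p = 0.00159)), Abca9 (1.80 ± 0.69 (SE, adjusted p = 0.0463)) and Abca8b (1.27 ± 0.31 (SE, adjusted p = 0.00228)), and the lowest were Abcg1 (-1.70 ± 0.50 (SE, adjusted p = 0.00998)) and Abca4 (-0.94 ± 0.23 (SE, adjusted p = 0.00282)). Abcg2 gave 0.61 ± 0.11 (SE, adjusted p = 0.000107) under paclitaxel and 0.03 ± 0.10 (SE, adjusted p = 0.883) without drug. The sign turned with treatment in 28 of the 37 tested genes, against 12153 of all 18108, and in all 9 called under both treatments (Abca3, Abca4, Abca5, Abcb1b, Abcc4, Abcc5, Abcf2, Abcf3 and Abcg1). Over all genes called under both treatments, only 3.95% kept their sign, so this turning was not particular to the ABC genes, and dngfr turned too.

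Several of these calls between EV labels rest on small differences. Under DMSO, the calls of Abcd3, Abcf2 and Abcf3, at 0.19, 0.24 and 0.21, depended on single libraries, and those of Abcd3 and Abcf3 on tool and scaling too. Abcd3 lost its call with DESeq2 (0.17), limma-voom (0.19), median-of-ratios scaling (0.17) and upper-quartile scaling (0.16), and Abcf3 with DESeq2, median-of-ratios scaling and upper-quartile scaling (0.19 in each). Abcd3 lost its call without any 1 library other than EV-proficient DMSO replicate 1 (0.15 to 0.23). Abcf3 lost it without any other than EV-proficient DMSO replicate 2 and EV-deficient DMSO replicate 3 (0.17 to 0.24). Abcf2 lost it without EV-proficient DMSO replicate 1 or 3, EV-deficient DMSO replicate 1, EV-deficient paclitaxel replicate 1 or any EV-proficient paclitaxel library (0.20 to 0.23). Of the lower calls under DMSO, Abcb10, at -0.22, lost its call without EV-proficient DMSO replicate 1 or 2 or EV-deficient DMSO replicate 2 or 3 (-0.18 to -0.22). It was also lost with no low-count filter (-0.18). Abca7, at -0.42, lost its call without EV-proficient DMSO replicate 1 (-0.36). The count of 6 higher fell to 2 without EV-proficient DMSO replicate 3 or EV-deficient DMSO replicate 1. It was 3 without EV-deficient DMSO replicate 2, EV-deficient paclitaxel replicate 1 or any 1 of the 3 EV-proficient paclitaxel libraries. Under paclitaxel, the call of Abca9 was lost without any 1 of the 12 libraries (1.5 to 2.06), with DESeq2 (1.87) and with no low-count filter (1.79). Abca2, at -0.20, lost its call without EV-deficient paclitaxel replicate 1 (-0.15) or 3 (-0.18) or EV-proficient paclitaxel replicate 1 (-0.20) or 2 (-0.16). It was also lost with DESeq2 (-0.18), median-of-ratios scaling (-0.18), a filter of 1 CPM in 3 libraries (-0.16), only the groups compared (-0.17) and upper-quartile scaling (-0.10). Abca3, at 0.19, lost its call without EV-proficient paclitaxel replicate 1 (0.17) or 3 (0.15) or with no low-count filter (0.17), and Abcf3, at -0.25, without replicate 2 of that group (-0.18), with upper-quartile scaling (-0.15) and in a fit of only the groups compared (-0.22). Abcg1, at -1.70, lost its call without EV-proficient paclitaxel replicate 1 (-1.42).

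**Figure D4:**
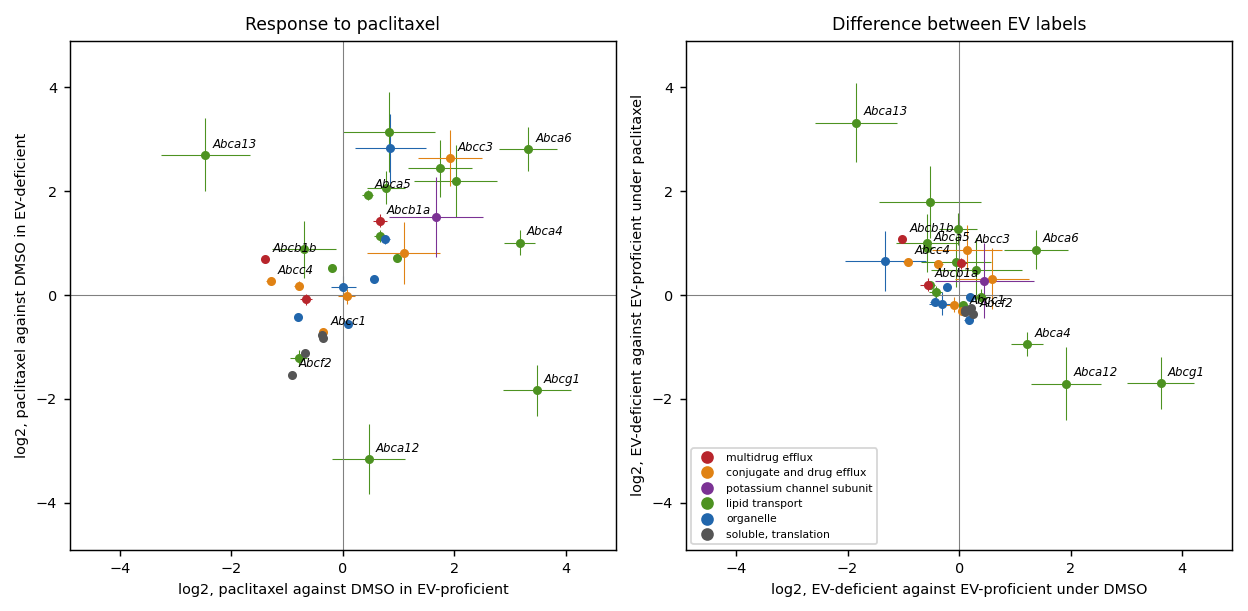
Left, log2 fold change with paclitaxel in EV-proficient (x axis) against EV-deficient cells (y axis) for the tested ABC genes shown, ± SE. Right, EV-deficient against EV-proficient under DMSO (x axis) and under paclitaxel (y axis); most points lie where the signs are opposite, as they were for 28 of all 37 tested genes.

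Genes linked to the pumps were read from lists, by the paclitaxel effect averaged over both EV labels, in which 37.1% of all genes were higher and 31.3% lower. Of 4 further ABC genes that the rule by name did not take, Abca1, Cftr, Tap1 and Tap2, 3 were higher and 0 lower, with Abca1 at 3.33 ± 0.35 (SE, adjusted p = 2.87e-08) and the peptide transporters Tap1 at 4.58 ± 0.23 (SE, adjusted p = 1.79e-13) and Tap2 at 2.77 ± 0.18 (SE, adjusted p = 1.09e-11). Abca1 had 1 to 7 counts in the DMSO libraries and at most 2.07 CPM. It passed the low-count filter through the paclitaxel libraries, so its rise describes and does not support a direction. Of 16 genes of glutathione supply and conjugation, which feed the ABCC exporters, 10 were higher and 4 lower, led by Mgst1 (3.95 ± 0.16 (SE, adjusted p = 6.39e-15)), Gstt1 (3.80 ± 0.20 (SE, adjusted p = 4.46e-13)) and Gsta3 (2.40 ± 0.58 (SE, adjusted p = 0.00102)). Gsta3 had 0 to 10 counts in the DMSO libraries and 1 to 51 with paclitaxel, with overlap. It too passed the filter through the paclitaxel libraries, so its rise describes and does not support a direction. Of 12 genes of taxane uptake and metabolism 3 could be tested and 2 were higher, with Slco1a5 at 0.82 ± 0.18 (SE, adjusted p = 0.000412) and Cyp3a13 at 0.36 ± 0.08 (SE, adjusted p = 0.000717). Within the labels the same 3 genes gave 0 higher and 2 lower in EV-proficient cells and 3 higher and 0 lower in EV-deficient cells, where 31.1% and 27.1%, and 32.4% and 30.5%, of all genes were higher and lower, with Cyp3a13 at -0.85 ± 0.12 (SE, adjusted p = 2.69e-06) and 1.57 ± 0.12 (SE, adjusted p = 2.01e-10). Of 8 genes linked to the anchoring, stability or turnover of P-glycoprotein or to multidrug resistance, 4 were higher and 3 lower, led by the ubiquitin ligase component Fbxo15 (2.36 ± 0.25 (SE, adjusted p = 2.83e-08)) and the kinase Pim1 (1.66 ± 0.08 (SE, adjusted p = 1.97e-13)). Of 17 tested regulators of ABC genes, 7 were higher and 4 lower, with a median log2 fold change of 0.07. They gave 6 higher and 2 lower in EV-proficient cells, 2 higher and 8 lower in EV-deficient cells, and 0 higher and 11 lower for the interaction, where 16.9% of all genes were higher and 23.8% lower. These lists were chosen with earlier results of these data known, and 0.07 is also the median of all genes.

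The 12 genes that were not tested are Abcb6, Abcc6, Abcc9, Abcc12, Abca8a, Abca14, Abca15, Abca16, Abca17, Abcg3, Abcg5 and Abcg8. None had more than 27 counts in a library, and Abcc9 and Abca15 had 0 counts in all 12. A count of 0 allows up to 0.0492 to 0.121 CPM in a library, from the limit of 3 counts. Abcb6 also overlaps Gm29253 on the same strand by 2932 exonic bases, so its counts are uncertain. Exons of Abca3, Abcb9, Abcb10, Abcb11 and Abcc10 overlap genes on the other strand by 19 to 914 bases. The library kit keeps strand, and whether the counting used it is not given in the sources used here.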

How the data were processed

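The 12 libraries, 3 in each group, hold polyadenylated RNA and were made with a kit that keeps strand (labels' protocols). Read counts per gene, as whole numbers without normalization, were deposited by the authors. STAR 2.5.0a and GRCm38 are named in the submitters' processing notes, and the counting program is not given in the sources used here. The 2 rows added by the authors (gfp, with 0 counts in all libraries, and dngfr) stayed out of library sizes and tests. The table had 0 columns of other samples.

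Genes were kept by filterByExpr (minimum count 10), leaving 18108 of the 35104 genes that had a count. All 12 libraries, scaled by TMM (0.890 to 1.15), entered a single quasi-likelihood fit of 4 group means in edgeR 4.0.16 under R 4.3.3. Benjamini-Hochberg adjustment covered all 18108 genes in each of 6 comparisons, and calls needed an adjusted p under 0.05. Fold changes are log2, the errors beside them are standard errors, and CPM uses the scaled library sizes. FPKM divides CPM by the exon length of GENCODE release 21 (GRCm38), in which 99.7% of the gene identifiers were found. The share of Abcb1a was compared by a two-sided exact permutation test. The script was tested on simulated counts.

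Replicate libraries of a group differed beyond sampling noise in all 12 pairs (chi-square per degree of freedom from 4.20 to 27.8), so no 2 files were taken for the same library. That does not show that they come from separate cultures. Depth sets the precision: 3 counts correspond to 0.0492 to 0.121 CPM, a limit for counting error alone, because the reads carry no molecular identifiers and may repeat a molecule.

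The ABC genes, their roles and the side lists were chosen with earlier results of these data known. Any ABC gene may be named: Abcb1a, Abcb1b and the Abcc genes always, the others where called, with the 3 highest and 3 lowest values of a comparison, and at most 3 called genes per side list. Alternatives were other scalings and filters, DESeq2 1.42.0, limma-voom (limma 3.58.1), a replicate block, fits on the compared groups only and leaving out each library. Values of some ABC genes that enter the counts are not reported here.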

Additional observations from a re-analysis of the deposited data

Results flagged for a closer look

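The response to paclitaxel differed between the EV labels, by the interaction test of edgeR at an adjusted p under 0.05, for 21 ABC genes. The values below are differences of log2 fold changes, EV-deficient minus EV-proficient. Among the drug and conjugate pumps they were 0.77 for Abcb1a, 2.09 for Abcb1b, 0.58 for Abcg2, -0.36 for Abcc1, 1.57 for Abcc4 and 0.98 for Abcc5. Among the lipid transporters they were -0.26 for Abca2, 0.72 for Abca3, -2.16 for Abca4, 1.49 for Abca5, 0.48 for Abca7, 1.30 for Abca8b, -3.62 for Abca12, 5.17 for Abca13 and -5.31 for Abcg1. Among the mitochondrial transporters they were -0.65 for Abcb8 and 0.38 for Abcb10. The soluble proteins gave -0.39 for Abce1, -0.42 for Abcf1, -0.61 for Abcf2 and -0.46 for Abcf3. The call of Abca2 was lost without any 1 library other than EV-deficient DMSO replicate 1 and EV-deficient paclitaxel replicate 2 (-0.18 to -0.29), with a filter of 1 CPM in 3 libraries (-0.21), with DESeq2 or median-of-ratios scaling (-0.22 in each) and with upper-quartile scaling (-0.14), and that of Abca7 without EV-proficient DMSO replicate 1 (0.42). That of Abca8b was lost without EV-deficient DMSO replicate 1 or 3, EV-deficient paclitaxel replicate 3, EV-proficient DMSO replicate 1 or EV-proficient paclitaxel replicate 1 (1.0 to 1.21), with limma-voom (1.28) and with no low-count filter (1.23). All of these values hold only for the EV labels as given. The interaction called 40.7% of all genes tested, so a call here does not set an ABC gene apart.

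The dngfr row, which enters no gene test, had a mean of 10.9 CPM in the EV-deficient paclitaxel libraries, against 2.15 in the EV-deficient DMSO libraries. It had 8.99 CPM in EV-proficient DMSO and 3.24 in EV-proficient paclitaxel, so its order between EV labels turned with treatment, as the ABC genes called under both treatments did. The reason was not tested.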

How the results depend on the processing

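No value of an ABC gene changed sign among those called, under any alternative run. The count of ABC genes higher with paclitaxel on average fell from 17 to 11 with a filter of 1 CPM in 3 libraries, which tests fewer genes. The count higher in EV-deficient DMSO, 6, ranged from 2 to 5 on leaving out 1 library. The other 10 counts stayed within 1.5 times of the values given. Of the 2664 gene values with 1 library left out, 97 lost and 25 gained a call, and of 1628 under the other alternatives 31 lost and 25 gained one. Upper-quartile scaling raised the median of all genes by 0.18 for paclitaxel in EV-deficient cells, by 0.12 for the averaged effect and by 0.12 for the interaction. It moved the share of higher among called genes from 51.5% to 63.4%, 54.2% to 62.998% and 41.4% to 53.9%. Between EV labels that share moved from 53.9% to 47.1% under DMSO and from 42.4% to 58.2% under paclitaxel.

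Whether the replicate numbers pair the samples was not settled. Of 18 correlations of deviations between same-numbered libraries, 4 exceeded 0.1 (from -0.141 to 0.228). Differently numbered libraries were not set beside them, so these values cannot decide it. With the replicate number as a block, Abca9 under paclitaxel between EV labels was 1.89 and lost its call, the interaction of Abcd4 was 0.31 and gained one, and no other ABC gene's call changed. Genes under 1 CPM are limited by depth.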
